A study of Homo sapiens with 18 samples.

Results

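The mRNAs described here encode 10 proteins that set which AUG a scanning ribosome accepts, join the ribosomal subunits there, or release and reuse the small subunit after termination: EIF1, EIF1B, EIF1AX, EIF5, EIF5B, BZW1, BZW2, DENR, MCTS1 and EIF2D. They were chosen by name, with earlier results of these data known, and all 10 were among the 13661 genes of the table. HEK293, an established human embryonic kidney cell line, was grown with DMSO vehicle for 12 h, and its cytoplasmic lysate was separated on sucrose gradients into a monosome, a light polysome and a heavy polysome fraction. These 9 libraries come from 3 biological replicates, called gradients 1 to 3 below, with 3 fractions each. Libraries of cells given 100 µM minocycline, a tetracycline antibiotic, for 12 h are not analysed here. Since no other treatment enters, fraction shares and ribosome loads describe where an mRNA lay relative to other genes in the gradient of vehicle-treated cells of 1 line. No value describes a response.

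During initiation a small ribosomal subunit carrying initiator tRNA scans from the cap. eIF1 and eIF1A (from EIF1AX) hold it in an open state that rejects poor start sites. eIF5 stimulates GTP hydrolysis by eIF2 and takes the place of eIF1 once an AUG is paired, and eIF5B then brings in the large subunit. The BZW proteins, also called eIF5-mimic proteins, resemble the carboxy-terminal part of eIF5 and compete with it. DENR and MCTS1 form a dimer, and EIF2D joins the same kinds of domain in 1 chain; both act on the small subunit after termination and promote reinitiation downstream of some short upstream reading frames. As background, the EIF1 start codon is known to lie in a poor context through which eIF1 limits its own synthesis, and EIF5 is known to be controlled through upstream reading frames.

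Start contexts are shown first because these factors act on such letters. Each line gives the 10 bases around the annotated start codon on the sense strand of the chosen GENCODE 29 transcript (GRCh38), with capitals at position -3, the ATG and position +4, counting the A of the ATG as +1.
EIF1: tatCgtATGT
EIF1B: tatCgcATGT
EIF1AX: accGccATGC
EIF5: gccAaaATGT
EIF5B: caaGcaATGG
BZW1: gggCggATGT
BZW2: aatTttATGA
DENR: tgtGaaATGG
MCTS1: tggAtcATGT
EIF2D: gcaGacATGT
EIF1, EIF1B, BZW1 and BZW2 had neither a purine at -3 nor G at +4, a class that held 6.52% of the 12419 genes with an annotated context. EIF5B and DENR had both features, like 45.8% of genes. The letters depend on the transcript for BZW1, where 6 of 8 annotated transcripts fell in the class with neither feature and most of these read differently from the one shown:
BZW1, 1257-nt reading frame: tctTttATGA
For BZW2 the same class held 9 of 12 annotated transcripts, and for EIF1 both of its transcripts. The 2 annotated transcripts of MCTS1 also differed, and the one not shown has A at -3 and G at +4, so both features. Across all genes the class with neither feature had a median mean ribosome load (MRL, defined below) of 3.09, against 3.23 for the class with both.

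The start codons lie at chr17:41689039-41689041 for EIF1, chr3:40309942-40309944 for EIF1B and chrX:20141638-20141640 on the minus strand for EIF1AX. Those of EIF5 and EIF5B lie at chr14:103335861-103335863 and chr2:99337555-99337557. The BZW1 start codon lies at chr2:200812408-200812410 and that of BZW2 at chr7:16665444-16665446. For the reinitiation factors they lie at chr12:122753702-122753704 (DENR), chrX:120604237-120604239 (MCTS1) and chr1:206612340-206612342 on the minus strand (EIF2D). Coding sequences, stop codon excluded, ran from 339 nt in EIF1 and EIF1B to 3660 nt in EIF5B. Upstream ATGs were most frequent in EIF5, with 6 in the chosen transcript and 1 to 18 over its 10 transcripts. EIF5B and BZW2 had 2 each, DENR and EIF2D 1 each, and the 5 others none in the chosen transcript, while 54.4% of all genes had at least 1. Over annotated transcripts the number ran from 0 to 14 in BZW2 and from 0 to 5 in both BZW1 and MCTS1.

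Total reads per library ranged from 13447139 to 24441159, and members held between 171 reads (EIF5B, monosome of gradient 2) and 44117 reads (EIF1, light polysome of gradient 3). The 9 markers listed for HEK293 all had reads in every library. Gradient 2 stood apart in 2 fractions. Its light library correlated across genes at r = 0.90 and 0.89 with the other light libraries but at 0.93 to 0.95 with the heavy ones. Its monosome library had 3.87% mitochondrially encoded reads, against 26.0% and 19.5% in the others, and 49.8% reads of ribosomal protein genes, against 36.0% and 31.6%. Where a member's values in gradient 2 depart from the other gradients, the part played by these libraries was not tested.

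The deposited percentages say what share of an mRNA's normalized count, summed over the 3 fractions of a gradient, lay in each. Every fraction was scaled to the same typical gene, so these shares compare genes and do not measure the amount of an mRNA in a fraction. MRL multiplies the monosome share by 1, the light share by 2.5 and the heavy share by 6 and adds them up, so that it runs from 1 to 6. The median gene of the 12720 kept had an MRL of 3.21, with quartiles of 2.61 and 3.73. By MRL the factors fell on both sides of it. EIF5, EIF5B, BZW2 and BZW1 had the highest values among the members, with means of 4.17, 4.15, 3.92 and 3.87. EIF1AX (3.27) and MCTS1 (3.17) lay near the median gene, and DENR (2.82), EIF1 (2.47), EIF1B (2.36) and EIF2D (2.11) below it. Each gradient was loaded with a bulk lysate, so an mRNA that every cell loads alike and one that cells load differently cannot be told apart.

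**Figure D1:**
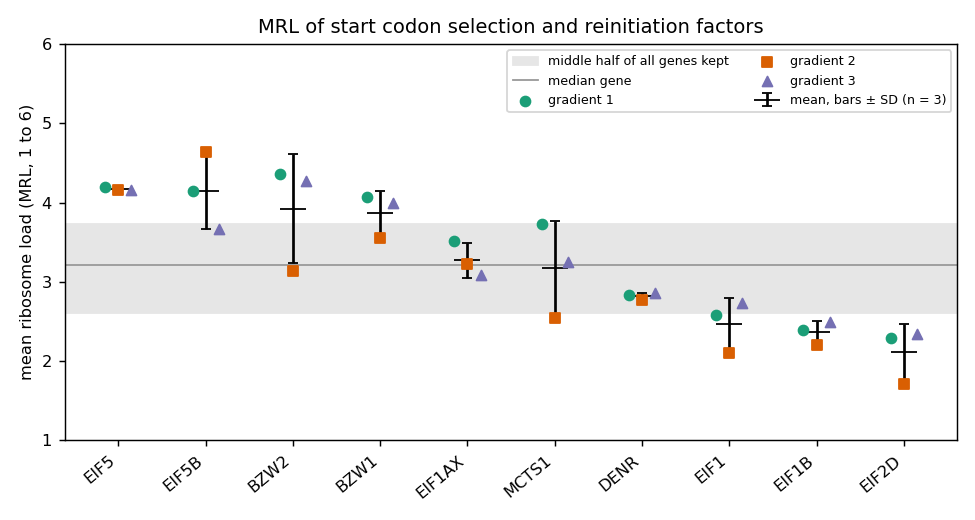
Mean ribosome load (vertical axis, from 1 to 6) of the 10 mRNAs in gradients 1 to 3 (symbols) with the mean and SD; the band spans the quartiles of the 12720 genes kept and the line is the median gene at 3.21. EIF5 keeps nearly the same value in the 3 gradients, while BZW2 and MCTS1 drop in gradient 2.

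Each member was tested against the median gene of the same gradient with limma on log2 MRL, and called when its adjusted p over all genes was under 0.05. Members called higher numbered 4 of 10 (EIF5, EIF5B, BZW1, BZW2), where 22.2% of all genes were called higher. Members called lower numbered 3 of 10 (EIF1, EIF1B, EIF2D), where 26.0% were called lower. Calls in either direction reached 48.1% of all genes, so a call by itself is common here. The members' median deviation was 0.02 on the log2 scale, against 0.01 over all genes. Without gradient 1 the call of EIF2D remained (limma adjusted p = 0.00070), whereas the adjusted p of the 6 other called members lay between 0.077 and 0.38. Their log2 deviations were then -0.40 (EIF1), -0.43 (EIF1B), 0.39 (EIF5), 0.38 (EIF5B), 0.25 (BZW1) and 0.21 (BZW2), against -0.37, -0.43, 0.40, 0.38, 0.29 and 0.29 with all gradients. Calls over all genes fell as well without gradient 1, to 6.65% higher and 17.2% lower. Without gradient 3 the adjusted p of EIF1, EIF5, BZW1 and BZW2 lay between 0.057 and 0.24, at deviations of -0.44, 0.40, 0.26 and 0.22, with 13.8% and 22.3% of all genes called higher and lower.

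Among the scanning factors, the EIF1 and EIF1B mRNAs were called lower by MRL and had little signal in heavy polysomes. EIF1, which encodes the main form of the factor that guards against poor start sites, had 17.5%, 13.0% and 19.2% of its signal in the heavy polysome of gradients 1, 2 and 3. Its light polysome share was 46.9%, 30.5% and 51.7%, and its monosome share 35.6%, 56.6% and 29.1%. The heavy values lay below all light and all monosome values, while light and monosome overlapped because the monosome led in gradient 2. Its MRL was 2.47 ± 0.33 (SD, n = 3), a log2 deviation of -0.37 from the median gene (SE 0.13, limma adjusted p = 0.0434). With each gradient's mean gene as the reference, this call was lost (limma adjusted p = 0.0541).

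EIF1B, a gene for a close relative of eIF1, had 11.0%, 13.8% and 11.0% in the heavy polysome of gradients 1 to 3, the lowest mean share of the members (12.0%). The light polysome held 55.7%, 34.0% and 62.8%, and the monosome 33.3%, 52.1% and 26.2%. Like EIF1, it led in the light polysome in gradients 1 and 3 and in the monosome in gradient 2, and its heavy values lay below all the others. Its MRL of 2.36 ± 0.15 (SD, n = 3) gave a log2 deviation of -0.43 from the median gene (SE 0.09, limma adjusted p = 0.00448). Its mean light polysome share of 50.9% exceeded that of 95.1% of genes. On the scale of normalized counts plus 1, the EIF1B mRNA was lower in heavy polysome than in light polysome by a log2 difference of -2.05 (SE 0.42, limma adjusted p = 0.00712) and lower than in monosome by -1.58 (SE 0.42, limma adjusted p = 0.00733). The corresponding EIF1 differences were -1.36 (limma adjusted p = 0.0567) and -1.25 (limma adjusted p = 0.0577), which missed the threshold. With the replicate number as a block, the EIF1 difference between heavy and light polysome was on the threshold (limma adjusted p = 0.05) and called.

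EIF1AX, the gene of eIF1A, had its largest share in the light polysome in every gradient. The light polysome held 47.0%, 61.3% and 55.8% of it in gradients 1 to 3, the heavy polysome 36.2%, 26.0% and 24.9%, and the monosome 16.8%, 12.7% and 19.3%. No 2 fractions overlapped: light values were highest, heavy values intermediate and monosome values lowest in all 3 gradients. The mean light polysome share of 54.7% exceeded that of 97.5% of genes. Its normalized count was higher in light polysome than in monosome by a log2 difference of 1.76 (SE 0.40, limma adjusted p = 0.00836). The differences of heavy polysome from monosome (0.84, limma adjusted p = 0.0972) and from light polysome (-0.92, limma adjusted p = 0.0890) missed the threshold. Its MRL of 3.27 ± 0.22 (SD, n = 3) deviated from the median gene by 0.05 on the log2 scale (limma adjusted p = 0.743). Counted instead by the percentage in light plus heavy polysomes, EIF1AX had 83.7% ± 3.35 (SD, n = 3), 14.7 points above the median gene (limma adjusted p = 0.036).

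**Figure D2:**
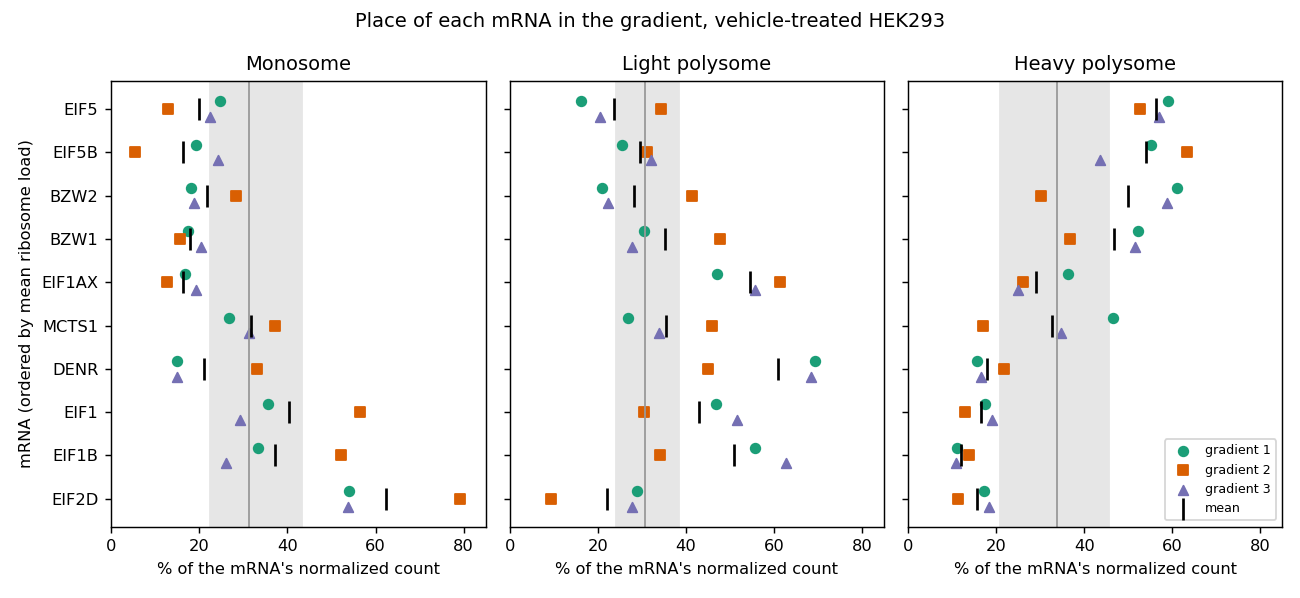
Percentage of each mRNA's normalized count in the monosome, light polysome and heavy polysome fractions of gradients 1 to 3 (symbols), with the mean as a bar; the grey band and line are the quartiles and the median of the 12720 genes kept. DENR, EIF1AX and EIF1B lie to the right in the light polysome panel, EIF2D in the monosome panel, and EIF5 and EIF5B in the heavy polysome panel.

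EIF5 and EIF5B led in the heavy polysome in every gradient and had the highest loads among the members. For EIF5, the gene of the GTPase-activating factor, the heavy polysome held 59.0%, 52.7% and 56.9% in gradients 1 to 3. The light polysome held 16.3%, 34.5% and 20.6%, and the monosome 24.7%, 12.8% and 22.5%. These last 2 fractions exchanged order in gradient 2 while the heavy share stayed above all of them. The MRL values were 4.19, 4.15 and 4.16, a mean of 4.17 ± 0.02 (SD, n = 3), where the SD of MRL over gradients was 0.32 for the median gene. EIF5 thus kept its weighted sum although its light polysome share ranged from 16.3% to 34.5%. Its log2 deviation from the median gene was 0.40 (SE 0.09, limma adjusted p = 0.00703), and 90.8% of genes had a lower mean MRL. This high load stood beside an annotated leader of 676 nt with 6 upstream ATGs, in a table where genes with at least 1 upstream ATG had a median MRL of 3.12 against 3.32 for genes with none.

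EIF5B, the gene of the subunit-joining GTPase, had 55.2%, 63.4% and 43.6% in the heavy polysome in gradients 1 to 3. Its light polysome share was 25.5%, 31.1% and 32.2%, and its monosome share 19.3%, 5.51% and 24.2%. All heavy values lay above all light values, and these above all monosome values. The MRL was 4.14, 4.64 and 3.66, a mean of 4.15 ± 0.49 (SD, n = 3) with a log2 deviation of 0.38 from the median gene (SE 0.10, limma adjusted p = 0.00912). Its normalized count was higher in heavy polysome than in monosome by a log2 difference of 1.96 (SE 0.48, limma adjusted p = 0.00456), against 1.54 for EIF5 (SE 0.50, limma adjusted p = 0.0209). The EIF5B difference was 1.18 without gradient 2, whose monosome library held 171 of its reads. REV1 lies on the opposite strand and overlaps EIF5B, and 13.6% of the 75-base windows of the chosen EIF5B transcript also occur in REV1 transcripts. Whether strand was used in counting is not given in the sources used here, so reads from the shared stretch cannot be told apart.

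The mimic proteins BZW1 and BZW2 were called higher by MRL, and in both the heavy polysome share was lowest in gradient 2. BZW1 had 52.1%, 36.7% and 51.6% in the heavy polysome in gradients 1 to 3, and 30.5%, 47.7% and 27.9% in the light polysome. Its monosome share of 17.4%, 15.6% and 20.5% was the lowest fraction each time. The MRL of 3.87 ± 0.28 (SD, n = 3) gave a log2 deviation of 0.29 from the median gene (SE 0.09, limma adjusted p = 0.0290), a call that was lost when libraries were scaled by their totals (limma adjusted p = 0.0709). Of the 75-base windows of the chosen BZW1 transcript, which holds 68 nt of 3′ UTR, 53.5% also occur in the pseudogene BZW1P2, which is not a row of the table, so the BZW1 count is uncertain where counting could split such reads.

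BZW2 had 61.0%, 30.2% and 58.7% in the heavy polysome and 20.9%, 41.5% and 22.4% in the light polysome. Its monosome shares were 18.1%, 28.4% and 18.8%. The heavy share in gradient 2 was near that of the monosome there and lower than in the other gradients. The MRL of 3.92 ± 0.69 (SD, n = 3) had the widest spread of the members and a log2 deviation of 0.29 from the median gene (SE 0.11, limma adjusted p = 0.0498). This call was lost with the default variance trend of limma (adjusted p = 0.0566), with scaling by library totals (0.0647) and among the more abundant genes alone (0.0597). In heavy polysome against monosome the log2 differences were 1.38 for BZW1 (SE 0.40, limma adjusted p = 0.0114) and 1.16 for BZW2 (SE 0.42, limma adjusted p = 0.0334).

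The 3 reinitiation and recycling factors differed in their shares. DENR had its largest share in the light polysome and EIF2D in the monosome, and MCTS1 lay near the pattern of the median gene. The DENR light polysome share was 69.4%, 45.0% and 68.5% in gradients 1 to 3, its heavy polysome share 15.7%, 21.9% and 16.5%, and its monosome share 14.9%, 33.2% and 15.0%. Every light value lay above every heavy and monosome value. Its mean light share of 60.9% ± 13.8 (SD, n = 3) exceeded that of 99.5% of genes. The DENR mRNA was higher in light polysome than in monosome by a log2 difference of 1.61 (SE 0.42, limma adjusted p = 0.0164) and lower in heavy than in light polysome by -1.74 (SE 0.42, limma adjusted p = 0.00987). Its MRL stayed at 2.83, 2.77 and 2.85 while the shares moved. At 2.82 ± 0.04 (SD, n = 3) it deviated from the median gene by -0.17 on the log2 scale (limma adjusted p = 0.149), which was called among the more abundant genes alone (limma adjusted p = 0.0466) and with scaling by library totals (limma adjusted p = 0.0265).

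MCTS1, whose protein pairs with DENR, had 46.5%, 16.9% and 34.8% in the heavy polysome, 26.8%, 46.0% and 33.8% in the light polysome and 26.7%, 37.1% and 31.4% in the monosome. All 3 fractions overlapped. The MRL of 3.73, 2.54 and 3.25 averaged 3.17 ± 0.60 (SD, n = 3) and deviated from the median gene by -0.02 on the log2 scale (limma adjusted p = 0.921). None of its 3 differences between fractions passed the threshold; they ranged from -0.20 to 0.14 on the log2 scale.

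EIF2D was the member with the lowest ribosome load. The monosome held 54.0%, 79.1% and 53.8% of it in gradients 1 to 3, the light polysome 28.8%, 9.49% and 27.8%, and the heavy polysome 17.2%, 11.4% and 18.5%. All monosome values lay above all values of both polysome fractions. The corresponding normalized counts were 1878, 3691 and 1981 in monosome, 1003, 443 and 1024 in light polysome and 599, 531 and 681 in heavy polysome. The mean MRL of 2.11 ± 0.35 (SD, n = 3) gave a log2 deviation of -0.60 from the median gene (SE 0.10, limma adjusted p = 0.00160), and 10.1% of genes had a lower value. The mRNA was lower in heavy polysome than in monosome by -1.99 (SE 0.40, limma adjusted p = 0.00130) and lower in light polysome than in monosome by -1.64 (SE 0.40, limma adjusted p = 0.0116), on the log2 scale. The second difference was -0.93 without gradient 2 and -2.0 without gradient 1, where it was not called (limma adjusted p = 0.0659). With libraries scaled by their totals neither was called (limma adjusted p = 0.119 and 0.342), as that scaling moved the median gene from 0.13 to 1.39 in heavy polysome against monosome and from 0.04 to 1.22 in light polysome against monosome.

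Transcription starts are shown for the 3 mRNAs called lower by MRL, because mRNAs that begin with C and a run of pyrimidines (5′ terminal oligopyrimidine mRNAs, such as those of ribosomal proteins) are known to be held back from polysomes when mTORC1 is low. Each window is from RefSeq (GRCh38.p14), 10 bases before the start in lower case and the first 10 transcribed bases in capitals, on the strand of the gene.
EIF2D: ccagccgggcCCTTTTCGCG
EIF1: ccgcccctctGCCCCAGTCA
EIF1B: cattttgtgcGAGAAGCCGC
The windows lie at chr1:206612456-206612475 on the minus strand, chr17:41688875-41688894 and chr3:40309697-40309716. At its RefSeq start EIF2D began with C followed by an unbroken run of pyrimidines, 7 in all counting the C. It was the 1 member of 10 to begin with C and at least 4 further pyrimidines, where 5.37% of the 10366 genes with a RefSeq start did. That pattern was read on the sense strand from the annotated start alone. Genes that begin this way had a median MRL of 2.92, against 3.23 for the rest. Among ribosomal protein genes 53.4% of 73 did, with a median MRL of 1.45, against 1.86 for the ribosomal protein genes that did not. The match describes letters at the RefSeq start, and the start used in these cells was not measured. The annotations disagree on this start. In GENCODE, the EIF2D gene begins at chr1:206612463 on the minus strand, past the leading Cs of the window shown. No GENCODE transcript of EIF2D thus holds the whole run, and the pattern was not tested at GENCODE starts.

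In heavy polysome against monosome, 4 members were called higher (EIF5, EIF5B, BZW1, BZW2) and 2 lower (EIF1B, EIF2D), where 24.7% and 24.4% of all genes were called higher and lower and 49.1% either way. In light polysome against monosome, 2 were called higher (EIF1AX, DENR) and 1 lower (EIF2D), where 8.47% and 10.2% of genes were, 18.7% in all. In heavy against light polysome none was called higher and 2 lower (EIF1B, DENR), where 14.7% and 17.5% of genes were, 32.2% in all. The 3 comparisons share libraries with each other and with MRL, so they are views of the same 9 libraries. The members' median log2 differences were 0.39, 0.40 and -0.28, against 0.13, 0.04 and 0.05 over all genes.

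Gradient 2 bore most on heavy against light polysome. With the replicate number as a block, EIF5 was called higher (1.31, limma adjusted p = 0.0333), EIF1 joined EIF1B and DENR among the members called lower, and 15.5% and 18.3% of all genes were called higher and lower. Without the light library of gradient 2, the members called were 2 higher (EIF5, BZW2) and 3 lower (EIF1, EIF1B, DENR), with 24.7% and 25.8% of all genes. Without the whole gradient, 4 were called higher (EIF5, EIF5B, BZW1, BZW2) and 5 lower (EIF1, EIF1B, EIF1AX, DENR, EIF2D), with 29.9% and 30.2% of all genes. The EIF5 difference went from 1.31 to 1.66 and that of BZW2 from 0.83 to 1.47 when the gradient was left out. Without gradient 1, limma called 0 of 12720 genes in this comparison, with 2490 at an unadjusted p under 0.05. Without gradient 3 it called 1 gene, with 3100 at that unadjusted p. The calls of EIF1B and DENR ended with the others. EIF1B then had log2 differences of -1.91 and -1.82 without gradient 1 and 3 (limma adjusted p = 0.165 and 0.0843), against -2.05 with all libraries. DENR had -1.54 and -1.59 (limma adjusted p = 0.238 and 0.118), against -1.74.

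Leave-outs moved the other 2 comparisons as well. In heavy polysome against monosome, 9.99% and 14.7% of all genes were called higher and lower without gradient 1, and 13.8% and 17.3% without gradient 3. The calls of EIF5, BZW1 and BZW2 were lost without gradient 1 (limma adjusted p = 0.108, 0.163 and 0.346), at log2 differences of 1.69, 1.29 and 0.86. They were also lost without gradient 3 (limma adjusted p = 0.0704, 0.0847 and 0.246), at 1.65, 1.41 and 0.92, and that of EIF1B was lost without gradient 1, at -1.58 (limma adjusted p = 0.0980). EIF5B and EIF2D remained called without any 1 gradient. In light polysome against monosome, 1.17% and 3.25% of all genes were called higher and lower without gradient 1, and 1.94% and 5.42% without gradient 3. EIF1AX was not called there, at 1.90 and 1.88 (limma adjusted p = 0.170 and 0.0937) against 1.76 with all libraries, and neither was DENR, at 1.31 and 1.33 (limma adjusted p = 0.307 and 0.202) against 1.61.

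**Figure D3:**
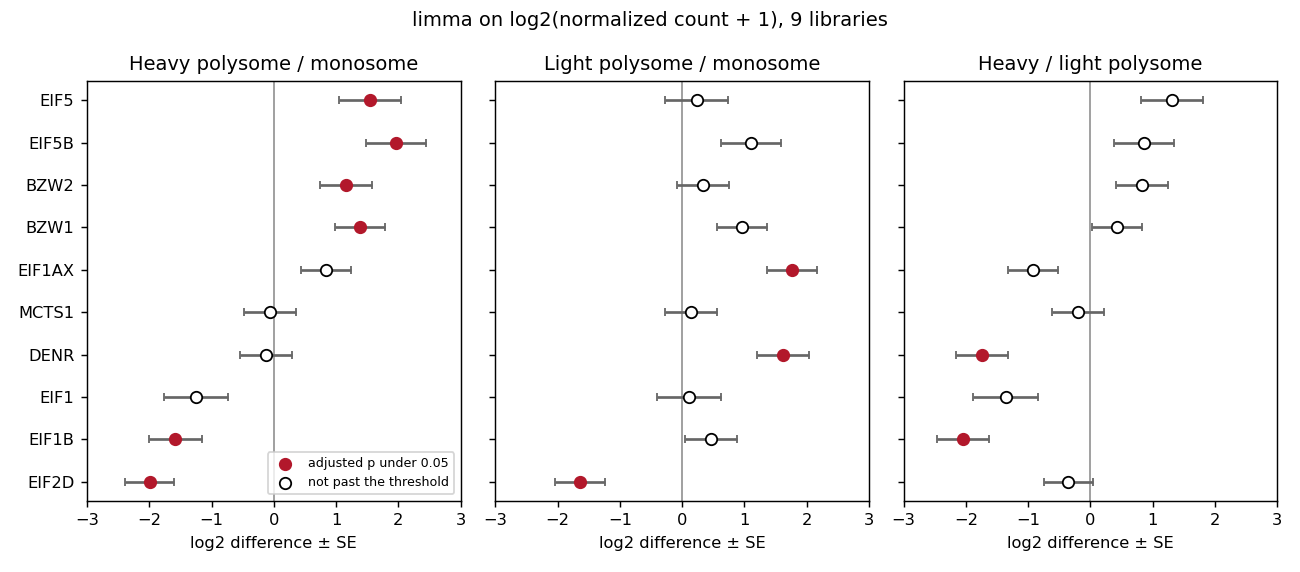
Log2 difference in normalized count plus 1 between fractions (horizontal axis) for the 10 mRNAs, with the SE from limma on 9 libraries; filled points have an adjusted p under 0.05 over all genes. EIF5B and EIF2D lie farthest from 0 in heavy polysome against monosome, at 1.96 and -1.99, and EIF1AX and DENR are the members called higher in light polysome against monosome.

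The leading fraction of an mRNA is the one with the largest share of its normalized count, after every fraction was scaled to the same typical gene. It was the same in all 3 gradients for 5 of 10 members, where 47.2% of genes kept theirs. The heavy polysome led for EIF5 and EIF5B (21.0% of genes), the light polysome for EIF1AX and DENR (9.03%) and the monosome for EIF2D (17.2%). These are also the classes given to the 5 mRNAs in the authors' deposited table, which leaves the other 5 unassigned. The remaining members had 1 leading fraction in gradients 1 and 3 and another in gradient 2, a pattern of 30.6% of genes. In gradient 2 EIF1 and EIF1B led in the monosome, and BZW1, BZW2 and MCTS1 in the light polysome. For MCTS1 the authors give the light polysome as the dominant fraction, and its mean share was also largest there (35.5%). The heavy polysome led for MCTS1 in gradients 1 and 3, in gradient 3 by 34.8% against 33.8% in the light polysome.

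A measure that weights light and heavy polysomes alike separated the members differently. By the percentage in light plus heavy polysomes, 2 members were called higher than the median gene (EIF1AX, BZW1) and 1 lower (EIF2D), where 12.0% and 18.6% of genes were. DENR had 79.0% ± 10.5 (SD, n = 3) in polysomes by this measure and EIF5 had 80.0% ± 6.31 (SD, n = 3), although their MRLs were 2.82 and 4.17. EIF2D had 37.7% ± 14.6 (SD, n = 3), 31.3 points below the median gene (limma adjusted p = 0.0108). The mean shares of DENR and EIF5 in polysomes thus differed by less than the SD of either, while DENR had 60.9% in light polysome and EIF5 56.2% in heavy polysome.

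Related or partnered members were compared within gradients in 8 pairs, by an exact two-sided sign-flip permutation test whose smallest possible p with 3 gradients is 0.25, so no pair could pass 0.05. EIF1 exceeded EIF1B in log2 MRL by 0.06 ± 0.11 (SD, n = 3, higher in 2 of 3 gradients, exact p = 0.5), and their coding sequences were identical at 82.0% of positions. BZW1 minus BZW2 was -0.01 ± 0.16 (SD, n = 3, higher in 1 of 3, exact p = 1), at a coding identity of 65.7% of the longer sequence. EIF5 minus EIF5B was 0.01 ± 0.17 (SD, n = 3, higher in 2 of 3, exact p = 0.75). These differences were smaller than their spread over gradients, which does not show that the pairs are loaded alike.

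EIF2D lay below its functional relatives in every gradient. Its log2 MRL was -0.43 ± 0.23 relative to DENR and -0.58 ± 0.11 relative to MCTS1 (SD, n = 3, each lower in 3 of 3 gradients, exact p = 0.25, 0.667 adjusted over the 8 pairs). DENR minus MCTS1 was -0.15 ± 0.26 (SD, n = 3, exact p = 0.5), with DENR higher in gradient 2 and lower in the others. EIF5 exceeded BZW1 in 3 of 3 gradients by 0.11 ± 0.10 (SD, n = 3, exact p = 0.25) and BZW2 in 1 of 3 by 0.10 ± 0.26 (SD, n = 3, exact p = 1). No 75-base window was shared between the chosen transcripts of EIF1 and EIF1B or between those of BZW1 and BZW2.

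Members with longer coding sequences tended to have higher MRLs, except EIF2D. As background, a short coding sequence has room for fewer ribosomes, and genes with 301 to 600 coding nt had a median MRL of 2.56, against 3.32 for 1201 to 2400 nt and 3.37 above that. Within the short class, EIF1 (339 nt) exceeded 44.2% of genes and EIF1B (339 nt) 37.8%, so both were close to the middle of their class although called below the median of all genes. In the same class EIF1AX (432 nt) exceeded 82.5%, MCTS1 (543 nt) 79.5% and DENR (594 nt) 63.8%. EIF5 (1293 nt), BZW2 (1257 nt) and BZW1 (1353 nt) exceeded 88.6%, 78.5% and 76.0% of their class. EIF5B (3660 nt) exceeded 94.8% of the longest class.

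EIF2D (1752 nt) had an MRL of 2.11 in a class whose median was 3.32, and exceeded 7.16% of its genes. Spearman's rho between MRL and coding length was 0.44 over the 10 members, 0.85 over the 9 without EIF2D and 0.25 over 12710 genes. These values run across genes measured in the same libraries and are given as a description. EIF2D was left out because its MRL departed from the others, so the higher rho without it follows from that choice.

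**Figure D4:**
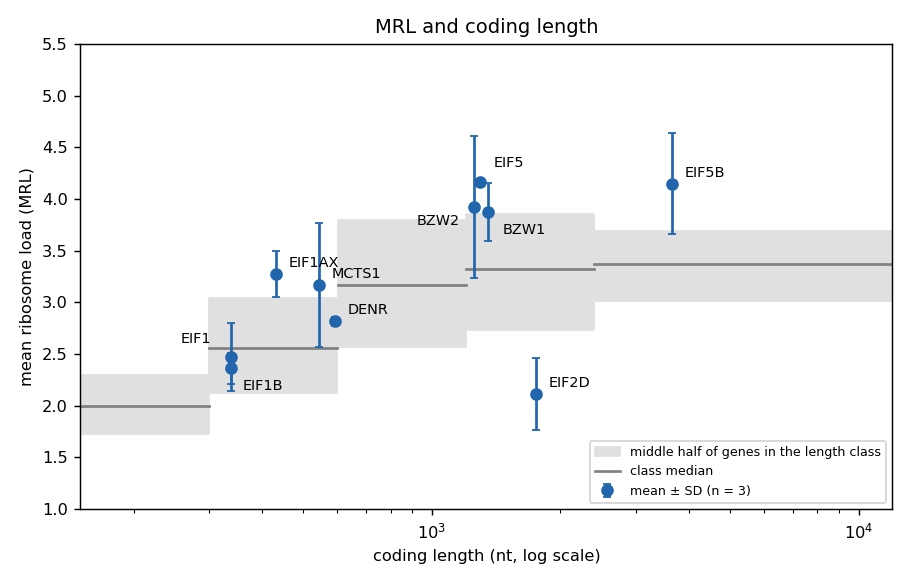
Mean ribosome load (vertical axis) against coding length in nt without the stop codon (horizontal axis, log scale); points are means with SD over 3 gradients, grey bands the quartiles and lines the median of all genes in each length class. EIF2D lies below the band of its class, and EIF5, EIF5B, EIF1AX, MCTS1, BZW1 and BZW2 have means above the upper edge of their band.

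Levels were compared per length, as the normalized count summed over the 3 fractions and divided by the kilobases of all annotated exons of the gene. Each fraction was scaled separately before this sum, so the levels are not amounts of mRNA. A read counted as 2.16, 2.37 and 1.61 in the monosome of gradients 1 to 3, and as 0.82, 0.45 and 0.86 in the heavy polysome. The sum thus weights mRNAs of the monosome more, and the order on unscaled reads was not tested. EIF1 had the highest level, 16578 ± 4436 (SD, n = 3) per kb, and its values were separate from those of the next member. EIF1AX had 5863 ± 243, EIF1B 4933 ± 1272, DENR 3097 ± 897 and its partner MCTS1 2857 ± 279. BZW2 (1734 ± 189), EIF5 (1704 ± 736) and BZW1 (1279 ± 284) overlapped, followed by EIF5B at 903 ± 170 and EIF2D at 489 ± 79 (SD, n = 3). Below EIF1 this order depended on the length used. Per kb of the chosen transcript, an alternative added after the data were seen, EIF1 had 25777 ± 6897 (SD, n = 3) and was again separate from the next, EIF1B at 9339 ± 2408. MCTS1 had 7962 ± 776, BZW1 7019 ± 1561 and EIF1AX 5863 ± 243, and DENR, BZW2 and EIF5 had 3999 ± 1158, 3411 ± 372 and 2438 ± 1053. EIF2D then stood above EIF5B, at 1967 ± 316 against 1232 ± 232 (SD, n = 3), with separate values in the opposite order. The largest change was that of BZW1, whose exons cover 8085 nt and whose chosen transcript 1473 nt; which transcripts these cells use was not measured. Along the order by MRL the gradients' values of neighbours were separate only between BZW1 and EIF1AX and between DENR and EIF1.

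The genes most like each member were sought by Euclidean distance over the 9 percentages, among 6342 more abundant genes. The nearest to EIF5 was PDHX (a pyruvate dehydrogenase complex component), at 4.12 percentage points with an MRL of 4.20 ± 0.10 (SD, n = 3), followed by SUV39H1 (a histone methyltransferase) at 4.62. UBE2A (a ubiquitin-conjugating enzyme) was nearest to EIF1AX at 5.70, RNASEH2C (a subunit of ribonuclease H2) to EIF1 at 5.72 and ZNF706 to EIF1B at 5.74. EIF5B had DDX46 (an RNA helicase of splicing) at 6.31, BZW1 had GABPB1 at 4.85, and BZW2 had ATP5PB (an ATP synthase subunit) at 5.90. The reinitiation factors had more distant neighbours: MLST8 (an mTOR complex subunit) at 8.08 for EIF2D, FAM107B at 8.38 for DENR and GSTA4 at 9.83 for MCTS1. No member was among the 3 nearest genes of another; EIF1 and EIF1B were 18.9 points apart and BZW1 and BZW2 22.4.

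Other genes of the pathway were counted on lists drawn up by name, with earlier results of these data known. Of all genes, 22.2% and 26.0% were called higher and lower by MRL. Of 8 genes for eIF2 and its exchange factor eIF2B, which deliver initiator tRNA, 5 were called higher by MRL and none lower, from EIF2B3 at 4.67 ± 0.39 to EIF2S3 at 2.64 ± 0.28 (SD, n = 3). Of 13 eIF3 genes, for the scaffold of the scanning complex, 3 were called higher and 4 lower, from EIF3B at 4.80 ± 0.17 to EIF3L at 1.82 ± 0.31. Of 9 genes for eIF4F and its partners, which bind the cap and the poly(A) tail, 1 was called higher and 4 lower, from EIF4H at 4.25 ± 0.41 to PABPC1 at 1.80 ± 0.14. Of 6 termination, rescue and recycling genes 3 were called higher and none lower, from ABCE1 (the recycling ATPase) at 4.28 ± 0.05 to EIF6 at 3.52 ± 0.72. Of 10 mRNAs known for upstream reading frames none was called higher and 6 lower, from AZIN1 at 3.58 ± 0.08 to DDIT3 at 1.55 ± 0.11.

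Their median deviations on the log2 scale were 0.36, -0.14, 0.12, 0.27 and -0.37 in the order of those lists, against 0.02 for the 10 start selection and reinitiation mRNAs and 0.01 over all genes. The eIF4F median is above 0 although more of its members were called lower than higher. Without gradient 2 the counts called higher and lower were 6 and 2 for eIF2 and eIF2B, 6 and 0 for termination and recycling, and 1 and 9 for the mRNAs with upstream reading frames. Over all genes 29.4% and 30.9% were then called higher and lower. Without gradient 1 the counts were 4 and 0, 0 and 0, and 0 and 3, where 6.65% and 17.2% of all genes were called.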

How the data were processed

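Polysome fractions of vehicle-treated HEK293 cells were analysed from 1 table of 9 libraries (3 fractions, 3 biological replicates). Per the labels' protocols, libraries were sequenced as single-end reads of 75 nt. Per the submitters' processing notes, featureCounts and GRCh38 were used; aligner, options and strand setting: not given in the sources used here. In the deposited signal each gene has its count divided by 1 size factor per library: whole reads were recovered for 100% of values in each library (tolerance 0.01 reads), and the factors lay within 0.997% of the median-of-ratios method. This scaling sets every fraction to the same typical gene, so values compare genes and not amounts of RNA between fractions. The deposited percent of a gene per fraction was recomputed to 5.5e-08, and the deposited MRL, a score, to 2.18e-09 with weights 1, 2.5 and 6. The polysome enrichment the authors give on a log2 scale was not used. Columns of fold changes in the table deposited by the authors carry no stated contrast and were not used.

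The members and gene lists were chosen with earlier results of these data known. Genes averaging 10 recovered reads or more, with reads in every gradient, were kept (12720 of 13661, all 10 members). Fractions were compared with limma 3.58.1 (R 4.3.3) on log2(normalized count + 1), which understates changes of low genes, fitted on all genes and 9 libraries with Benjamini-Hochberg adjustment at 0.05, two-sided. MRL was tested with limma on log2 MRL minus the gradient's median gene. In 20 simulations of this test (12720 genes), a variance trend on abundance gave 3 to 14 false calls among 12520 unchanged genes (mean 8.45). The default trend gave 12 to 40 (mean 24.2). The abundance trend recovered 61.9% of genes given a 2-fold change of the heavy polysome count and 99.4% of those given a 4-fold change. The simulated libraries were drawn independently, with the same spread setting for all genes and no departing gradient. The simulations therefore cannot decide which trend suits these data. The abundance trend was used for its fewer simulated false calls, a choice made after the data were seen, with the default as an alternative. edgeR 4.0.16 and DESeq2 1.42.0 on recovered reads, other scalings, filters and pseudocounts, and leaving out replicates were alternatives. Depth was 13447139 to 24441159 reads per library. Replicate numbers pair libraries because the labels give the same number as the batch of all 3 fractions of a replicate; deviations from fraction means correlated at -0.54 to 0.39 within numbers. Named genes are all 10 members, the 3 nearest genes of each by percentages among the more abundant genes, and the highest and lowest of each list. Sequences and positions are from GENCODE 29 (13658 of 13661 gene IDs matched; best APPRIS transcript, then longest coding sequence) and transcription starts from RefSeq (10 of 10 members matched). Protein sequences were not used here.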

Additional observations from a re-analysis of the deposited data

How the results depend on the processing

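Of 500 values of single members under the alternatives, 408 kept their direction and side of the threshold, 39 no longer passed it, 32 newly passed it and 21 reversed; the cause was not tested. Members called higher and lower by MRL numbered 4 and 3 with the median gene as centre, and 2 and 1 by the percentage in light plus heavy polysomes. Scaling by library totals gave 2 higher and 4 lower by MRL, with 22.4% and 25.9% of all genes. It gave 7 higher and 0 lower in heavy polysome against monosome, and 9 higher and 0 lower in light polysome against monosome. That scaling also moved the background in those 2 comparisons, calling 60.8% and 58.1% of all genes higher and 8.66% and 2.88% lower. In heavy against light polysome, the replicate block gave 1 higher (EIF5) and 3 lower (EIF1 beside EIF1B and DENR). Of all genes, 15.5% and 18.3% were then called higher and lower. Leaving out the light library of gradient 2 gave 2 higher and 3 lower, with 24.7% and 25.8% of all genes. DESeq2 gave 0 higher and 4 lower, with 16.5% and 22.1% of all genes. The replicate block changed no other call of a member. Leaving out 1 replicate in turn gave 0 to 4 higher and 1 to 3 lower by MRL, and 1 to 5 and 1 to 2 in heavy polysome against monosome. It gave 0 to 3 and 0 to 1 in light polysome against monosome, and 0 to 4 and 0 to 5 in heavy against light polysome. Of 12720 genes, 846 to 3737, 1271 to 3996, 149 to 2202 and 0 to 3806 were called higher in these 4 comparisons. Those called lower were 2189 to 3934, 1866 to 3818, 413 to 2305 and 0 to 3845. Heavy against light polysome had 0 calls by limma without replicate 1 (2490 genes at an unadjusted p under 0.05) and 1 without replicate 3.

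The reversed values, mostly small, were as follows, with the range when 1 replicate or 1 named library was left out. By MRL, library totals gave -0.059 for EIF1AX, the percentage in light plus heavy polysomes 9.95 points for DENR and centring on the mean gene 0.042 for MCTS1; leaving out a replicate gave -0.0063 to 0.086 for EIF1AX and -0.14 to 0.14 for MCTS1. In heavy polysome against monosome, library totals gave 0.030 for EIF1, 1.15 for DENR and 1.22 for MCTS1; leave-outs gave -0.26 to 0.11 for DENR (0.0065 without the monosome library of gradient 2, an alternative chosen after seeing the data) and -0.49 to 0.47 for MCTS1 (0.14 without that library). In light polysome against monosome, EIF1 had -0.028 with DESeq2; leave-outs gave -0.25 to 0.61 for EIF1, -0.40 to 0.65 for EIF5, -0.025 to 0.59 for BZW2 and -0.14 to 0.34 for MCTS1, the lowest of the last 3 without the light library of gradient 2. In heavy against light polysome leave-outs gave -0.70 to 0.42 for MCTS1. Among pairs, the percentage in light plus heavy polysomes gave EIF1 minus EIF1B -3.27, EIF5 minus EIF5B -3.66, BZW1 minus BZW2 3.94, DENR minus MCTS1 10.7 and EIF5 minus BZW1 -2.19 points; leaving out a replicate gave -0.071 to 0.0997 for EIF5 minus EIF5B, -0.0995 to 0.043 for BZW1 minus BZW2 and -0.049 to 0.18 for EIF5 minus BZW2. Every member had at least 171 reads in each library. Levels per kb changed their order with the length used, as given above.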
